A study of Mus musculus with 9 samples.

Results

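Hox genes encode homeodomain transcription factors that lie in 4 clusters, a to d, and give positions along the body their identity. A gene's paralogue number gives its place in the cluster: genes of low number are switched on early and reach furthest forward, into the hindbrain and neck, and genes of high number are switched on later and mark the trunk, tail and limbs. Retinoic acid, Cdx proteins and the tail bud's Wnt and Fgf signals set where each is active, Notch signalling times the somites in which they act, and Polycomb and Trithorax proteins keep each gene off or on afterwards.

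The Hox genes described here are all those with at least 1 probe set that the platform annotation ties to exactly 1 Hox symbol. There are 31 of them among 12393 genes, measured by 37 of 22626 probe sets: 9 in cluster a, 9 in b, 6 in c and 7 in d. By position 9 are anterior (paralogues 1 to 4), 9 central (5 to 8) and 13 posterior (9 to 13). A further 3 probe sets, annotated to Hoxb8 with Hoxb7 or to Hoxd3 with Hoxd4, carry 2 symbols and were left out.

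RNA of whole mouse embryos at 9.5 days post coitum (dpc) was hybridised to 9 Affymetrix arrays. The embryos carried a targeted allele of Notch1, the receptor, or of Dll3, a Notch ligand of the presomitic mesoderm. The groups are Notch1tm1Con/tm1Con (labelled Notch1 null, 2 arrays), Notch1tm1Con/+ (Notch1 heterozygous, 1 array), +/+ (wild type, 2 arrays), Dll3neo/+ (Dll3 heterozygous, 2 arrays) and Dll3neo/neo (labelled Dll3 null, 2 arrays); a C57BL/6J background is given for 1 of the Notch1 null arrays alone. Nothing in the labels says whether replicates are separate embryos or litters, or whether embryos were pooled, so a p-value here weighs a difference against array-to-array variation alone, part of which could be technical. In whole embryos, fewer cells of a type and less RNA per cell cannot be told apart.

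The deposited values are linear ratios, each probe set divided by a number of its own, and 35 of the 37 Hox probe sets have a median of 1 over the 9 arrays. The other 2, the Hoxd12 probe set and 1 of the 2 Hoxa4 probe sets, have medians of 0.940 and 0.567 and could be dim. Ratios show a gene's change between arrays, but not whether it was detected, and they set no gene's level against another's. Control probe sets for the bacterial dap transcript differed with the groups: their mean ratio was 6.61 and 9.20 in the wild-type arrays, 5.26 and 2.62 in Notch1 null, 1 in Notch1 heterozygous and 0.360 to 0.403 in the 4 Dll3 arrays. By Xist and the Y-linked Eif2s3y, replicate 1 of each mutant genotype had the pattern of female RNA, and the other arrays, both wild-type arrays among them, that of male RNA. The targeted genes check no label, since the place of their probes against the altered sequence is not known here: the Notch1 ratio was 1.39 and 1.71 in the arrays labelled Notch1 null against 0.945 and 1.01 in wild type, and the Dll3 ratio 0.804 and 0.933 in those labelled Dll3 null against 1.09 and 1 in wild type.

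Of the 4 Hox genes that changed between Notch1 null and wild type, described next, RefSeq's promoter table (GRCm38.p6) holds Hoxa5, Hoxa9 and Hoxa2, so their 250 bases before the transcription start are shown, each 5′ to 3′ on the gene's own strand. Capitals mark matches, on either strand, to TGGGAA (the core bound by RBPJ, the DNA-binding partner of Notch) or to TGATNNAT (a joint Hox and Pbx site). ACGTG (the hypoxia response core) and TTTATG (a Cdx site) were also searched and had no match in these 3. Hoxb5 has no entry in the table.
Hoxa5, chr6:52204588-52204837, minus strand: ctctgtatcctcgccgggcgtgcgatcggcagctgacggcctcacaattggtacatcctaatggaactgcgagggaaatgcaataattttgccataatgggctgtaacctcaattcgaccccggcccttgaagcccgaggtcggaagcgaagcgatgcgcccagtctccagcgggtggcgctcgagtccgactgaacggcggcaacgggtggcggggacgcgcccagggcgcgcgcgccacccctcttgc
Hoxa9, chr6:52227371-52227620, minus strand: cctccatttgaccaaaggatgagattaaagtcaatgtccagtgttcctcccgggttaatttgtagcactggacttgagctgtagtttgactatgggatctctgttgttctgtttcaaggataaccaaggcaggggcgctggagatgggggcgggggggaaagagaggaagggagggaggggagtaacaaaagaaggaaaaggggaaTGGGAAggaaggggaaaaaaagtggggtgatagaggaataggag
Hoxa2, chr6:52164832-52165081, minus strand: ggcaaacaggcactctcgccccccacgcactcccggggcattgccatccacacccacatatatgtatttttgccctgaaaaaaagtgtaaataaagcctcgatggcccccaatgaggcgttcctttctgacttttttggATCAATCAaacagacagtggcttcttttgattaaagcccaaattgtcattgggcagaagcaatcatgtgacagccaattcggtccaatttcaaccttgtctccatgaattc
The Hoxa9 stretch holds 1 TGGGAA match, starting 44 bases before the start, and the Hoxa2 stretch 1 TGATNNAT match, on the reverse strand, 111 bases before it. The Hoxa5 stretch has none of the motifs, and is richer in G and C, at 63.6% with 28 CpG, than those of Hoxa9 (49.6%, 3 CpG) and Hoxa2 (46.4%, 6 CpG). The table covers 18 of the 31 Hox genes with 20 promoters, of which 2 hold TGGGAA, 5 ACGTG, 3 TGATNNAT and 2 TTTATG. Among all 32851 promoters of the same length the shares are 21.6%, 16.6%, 7.7% and 10.8%, so a TGGGAA match as in Hoxa9 is common. The median GC content was 59.2% in the Hox promoters and 52.4% in all, with medians of 13 and 6 CpG. A match describes letters in this window and is not a measured site.

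Embryos labelled Notch1 null differed from wild type in 4 Hox genes. Hoxa5, which patterns the neck and upper thorax and the airways, was 1.56-fold higher, and Hoxa9, a lower-thoracic and lumbar gene that also acts in blood progenitors, 1.51-fold higher. Hoxa2, the selector of the second branchial arch and a hindbrain gene, was 1.48-fold lower, and Hoxb5, a gene of the brachial region, gut and enteric neural crest, 1.50-fold lower. A gene is called changed when limma's p, adjusted by Benjamini-Hochberg over all 12393 genes, is under 0.05. By that rule 12.1% of all genes changed and 4 of 31 Hox genes did, 2 in each direction where 3.76% of all genes rose and 8.35% fell, so the Hox share is near that of all genes. A robust limma fit, which may understate the spread with so few arrays, called 10 of the 31, and 34.0% of all genes. Without Notch1 null replicate 2 it was 2 of the 31, Hoxa5 and Hoxb5, and 372 of all 12393 genes in place of 1501. In these settings the Hox count moved in the same direction as that of all genes. With sex as a covariate it stayed at 4, while that of all genes fell to 1193. The median log2 change was 0.01 over the Hox genes and -0.03 over all genes.

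**Figure D1:**
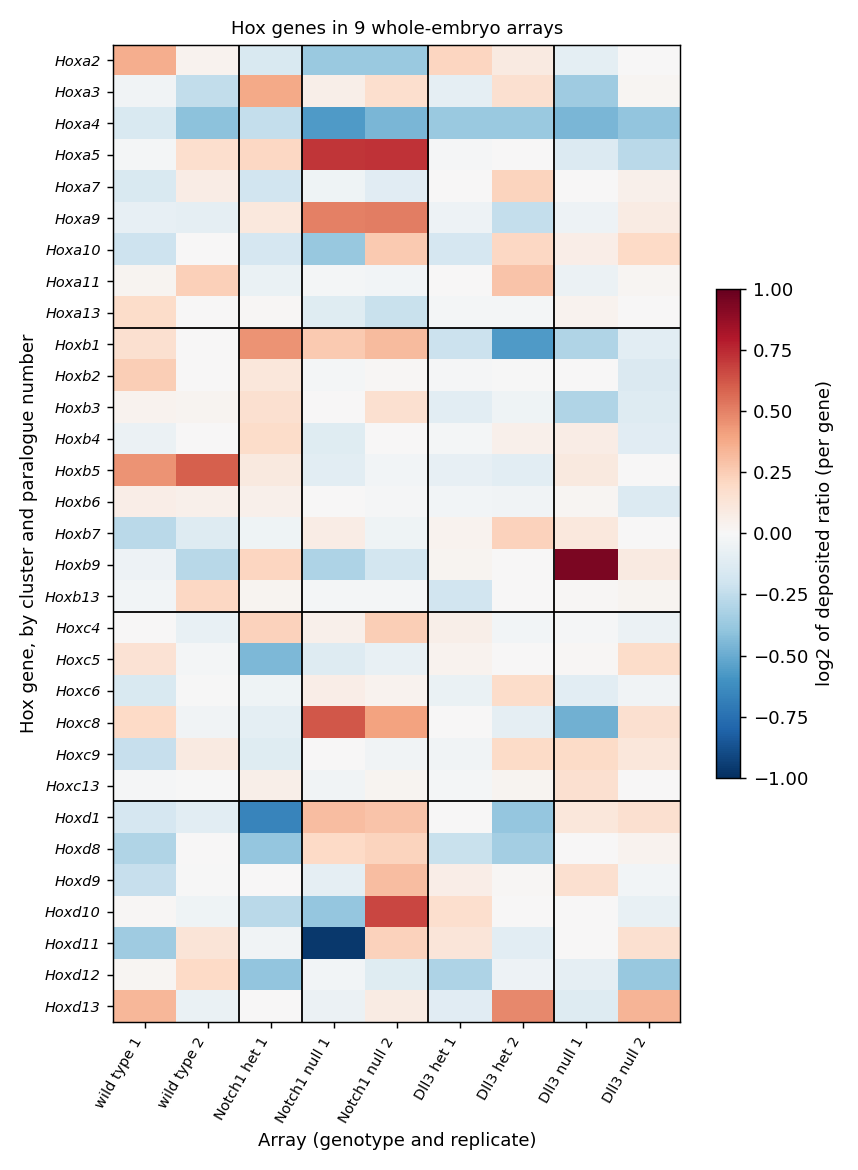
Log2 ratio of each of the 31 Hox genes (rows, ordered by cluster and paralogue number) in each of the 9 arrays (columns, by genotype), on a colour scale from -1 to 1. Hoxa5 and Hoxa9 are high in both Notch1 null arrays, Hoxb5 is high in both wild-type arrays, and Hoxd10 and Hoxd11 differ between the Notch1 null arrays.

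The Hoxa5 ratio was 1.64 and 1.65 in the Notch1 null arrays, 1.16 in the Notch1 heterozygous array, 0.989 and 1.13 in wild type, 0.990 and 1 in Dll3 heterozygous and 0.911 and 0.829 in Dll3 null. The Notch1 null arrays lay above every other array and the Dll3 null arrays below every other. Against wild type the log2 change was 0.64 ± 0.10 (standard error of the limma fit, 2 arrays against 2; adjusted p = 0.00485), a difference larger than that between replicates. It stayed past the threshold in all 20 alternative analyses run.

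The Hoxa9 ratio was 1.42 and 1.43 in Notch1 null, 1.08 in Notch1 heterozygous, 0.944 and 0.937 in wild type, 0.966 and 0.850 in Dll3 heterozygous and 0.965 and 1.06 in Dll3 null. Again the Notch1 null arrays lay above all 7 others. The log2 change against wild type was 0.60 ± 0.10 (limma, adjusted p = 0.00641), and 0.0514 was its adjusted p without Notch1 null replicate 2. Hoxa9's 2 probe sets rose by 0.50 and 0.69 on the log2 scale and each passed the test, with adjusted p of 0.0300 and 0.00910 over all probe sets. They differed in the Notch1 heterozygous array, where 1 stood at 1.23 and the other at 0.939.

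The Hoxa2 ratio was 0.773 and 0.774 in Notch1 null, 0.898 in Notch1 heterozygous, 1.29 and 1.02 in wild type, 1.16 and 1.07 in Dll3 heterozygous and 0.934 and 1 in Dll3 null. The Notch1 null arrays lay below all others, and the wild-type arrays differed from each other by more than they did. The log2 change was -0.57 ± 0.12 (limma, adjusted p = 0.0153). The call ended without Notch1 null replicate 1 (adjusted p = 0.0691) or 2 (0.0927), without wild-type replicate 1 (0.0926) and after quantile normalization (0.0528).

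Hoxb5 had another pattern. Its ratio was 0.928 and 0.980 in Notch1 null, 1.07 in Notch1 heterozygous, 1.36 and 1.51 in wild type, 0.947 and 0.928 in Dll3 heterozygous and 1.07 and 1 in Dll3 null. Wild type stood above all 7 mutant arrays, which ran from 0.928 to 1.07. Among these the Notch1 null and Dll3 heterozygous arrays overlapped, and the Dll3 null and Notch1 heterozygous arrays lay higher. The log2 difference from wild type was -0.59 ± 0.10 in Notch1 null (limma, adjusted p = 0.00563), -0.42 ± 0.12 in Notch1 heterozygous (adjusted p = 0.0889), -0.61 ± 0.10 in Dll3 heterozygous (adjusted p = 0.0510) and -0.47 ± 0.10 in Dll3 null (adjusted p = 0.159); these 4 values share the wild-type arrays. The dap controls were also highest in the wild-type arrays, and their part in the Hoxb5 difference was not tested.

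**Figure D2:**
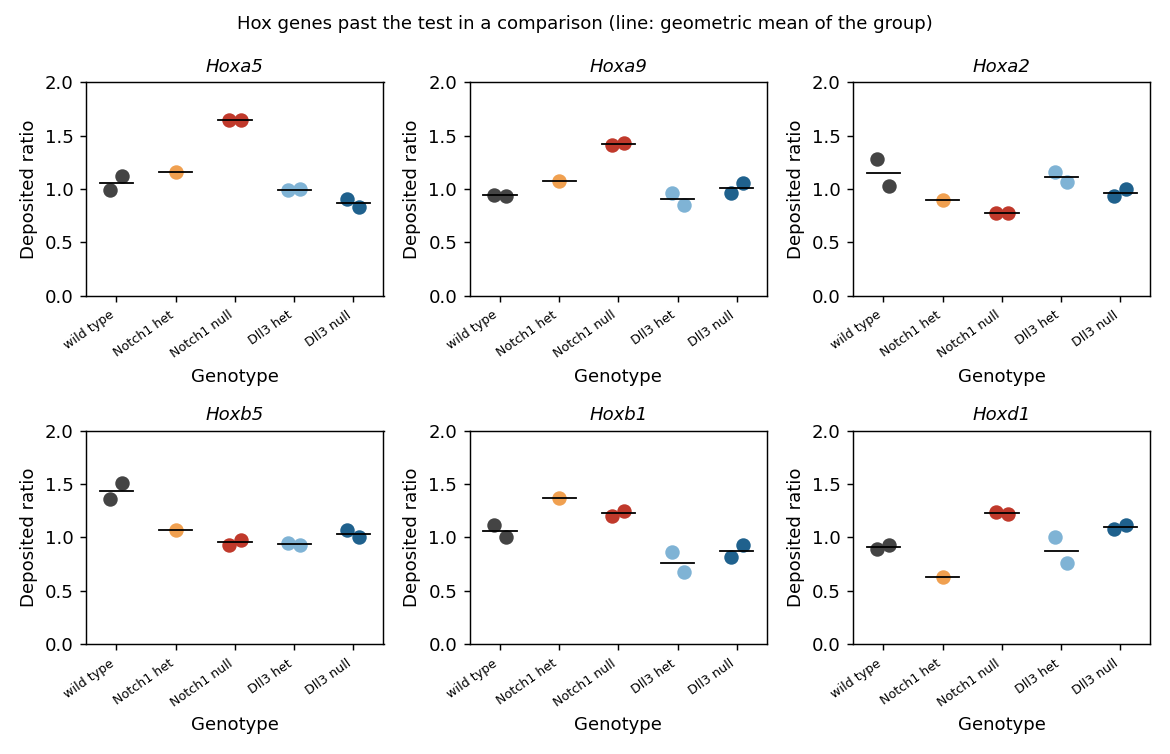
Deposited ratio (vertical axis, linear) in each array, by genotype, for the Hox genes past the test in at least 1 comparison, Hoxa5, Hoxa9, Hoxa2, Hoxb5, Hoxb1 and Hoxd1; each point is 1 array and each line the geometric mean of a group. Notch1 null is highest in Hoxa5 and Hoxa9 and lowest in Hoxa2, and wild type is highest in Hoxb5.

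The next largest Notch1 null differences lay in the middle of the clusters and at their anterior end, and did not pass. Hoxd1, which patterns sensory neurons and is active early in mesoderm, stood at 1.24 and 1.22 in Notch1 null against 0.891 and 0.931 in wild type, a log2 difference of 0.43 ± 0.12 (limma, adjusted p = 0.0502). The Notch1 heterozygous array lay at the other end, at 0.632, the Dll3 heterozygous arrays at 1 and 0.764 and the Dll3 null arrays at 1.08 and 1.12. Hoxc8, a thoracic gene also used by brachial motor neurons, stood at 1.54 and 1.32 in Notch1 null, 0.933 in Notch1 heterozygous, 1.15 and 0.977 in wild type, 1 and 0.942 in Dll3 heterozygous and 0.717 and 1.12 in Dll3 null. Both of its Notch1 null arrays were above all others, but the Dll3 null arrays differed by 1.56-fold, and the log2 difference from wild type was 0.43 ± 0.18 (limma, adjusted p = 0.178). Hoxd8, the paralogue of Hoxc8, chosen after its values were seen, had 1.15 and 1.17 in Notch1 null and 0.765 to 1.03 in the other 7 arrays; its log2 difference from wild type was 0.36 ± 0.11 (limma, adjusted p = 0.0734).

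In all, 5 Hox genes (Hoxa5, Hoxa9, Hoxc8, Hoxd1 and Hoxd8) had both Notch1 null arrays above every other array, where 7.32% of all genes did. Hoxa2, Hoxa4 and Hoxa13 had both below every other array, where 13.5% did. The arrays of Notch1 null and wild type did not overlap in 18 of 31 Hox genes, against 56.2% of all genes, and 8 of 31 had an unadjusted limma p under 0.05, against 25.9%. Both Hox counts are near the share of all genes. Tested singly, 6 of 37 Hox probe sets passed between Notch1 null and wild type, where 9.45% of all 22626 probe sets did.

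Over the 4 clusters together the changes did not follow the body axis in order. The median log2 difference of Notch1 null from wild type was 0.05 over the anterior genes (range -0.57 to 0.43), 0.13 over the central genes (-0.59 to 0.64) and -0.08 over the posterior genes (-0.26 to 0.60). By cluster it was -0.04 in a, -0.07 in b, 0.09 in c and 0.16 in d. Neighbours went different ways: in cluster a the fall of Hoxa2 and rise of Hoxa5 lie on either side of Hoxa3 at 0.26 ± 0.14 and Hoxa4 at -0.23 ± 0.11, neither past the test. Paralogues did so too, since Hoxa5 rose and Hoxb5 fell, while Hoxc5 stood at -0.16 ± 0.10. In the other direction along cluster a, Hoxa7 was at -0.04 ± 0.11 and Hoxa11 at -0.15 ± 0.12, with Hoxa9 between them. In cluster d the log2 difference was 0.43 in Hoxd1, 0.36 in Hoxd8, 0.23 ± 0.14 in Hoxd9, 0.16 ± 0.26 in Hoxd10, -0.25 ± 0.31 in Hoxd11, -0.19 ± 0.13 in Hoxd12 and -0.12 ± 0.21 in Hoxd13. None of these 7 passed the limma test; 2, Hoxd1 and Hoxd8, had an unadjusted p under 0.05.

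**Figure D3:**
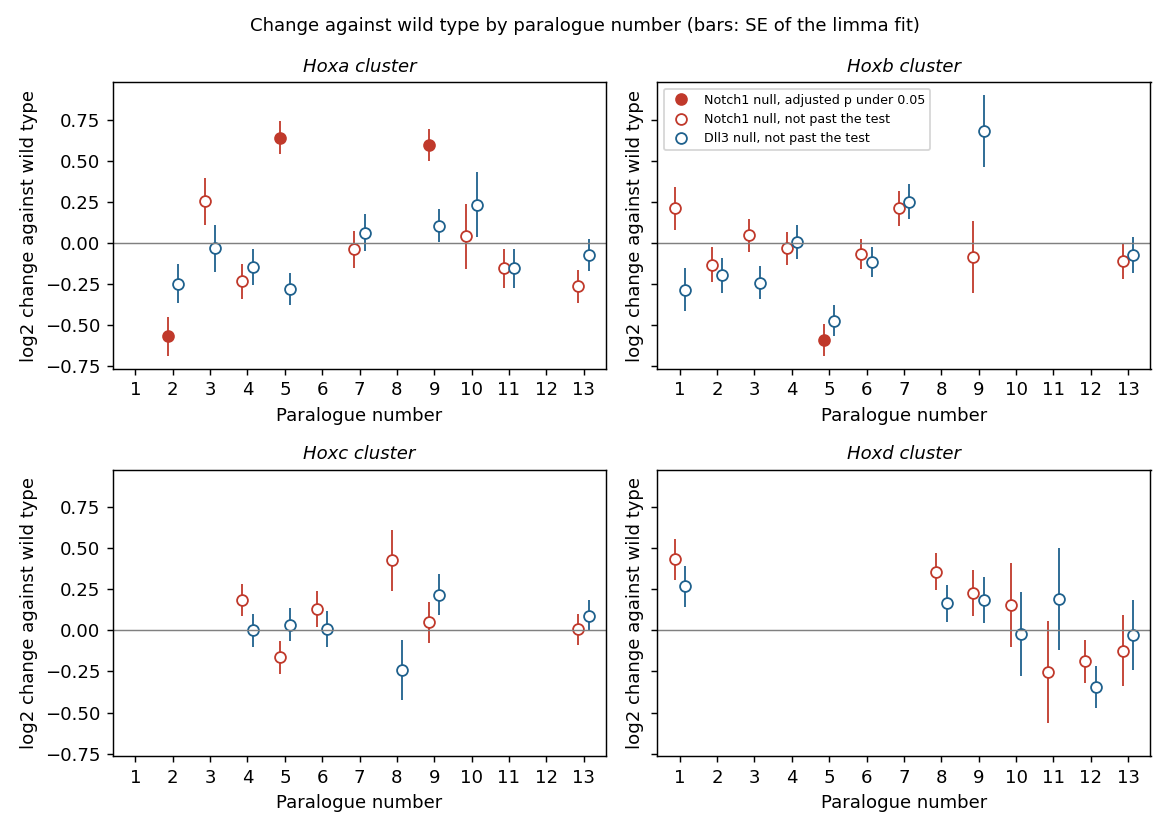
Log2 difference from wild type (vertical axis; bars are standard errors of the limma fit) of each Hox gene against its paralogue number (horizontal axis), for Notch1 null and Dll3 null, with a panel per cluster; filled points passed the test and open points did not. In Notch1 null the values lie between -0.59 and 0.64, and genes of the same number lie on both sides of 0.

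Several members kept to a narrow range over the arrays. Hoxc13, a gene of hair and tail, had a highest ratio 1.15-fold its lowest over the 9 arrays, Hoxb6 also 1.15-fold, and Hoxb4 1.23-fold. Hoxb2 lay between 0.907 and 1.19, Hoxb13 between 0.876 and 1.15, and Hoxc4 between 0.951 and 1.19. Their log2 differences between Notch1 null and wild type were 0.01 ± 0.09 for Hoxc13, -0.07 ± 0.09 for Hoxb6, -0.03 ± 0.10 for Hoxb4, -0.13 ± 0.11 for Hoxb2, -0.11 ± 0.11 for Hoxb13 and 0.19 ± 0.10 for Hoxc4, none past the test. The widest were Hoxb9 (2.38-fold), Hoxd11 (2.29-fold), Hoxc8 (2.14-fold), Hoxd10 (2.07-fold) and Hoxb1 (2.02-fold).

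Hoxc6, which marks limb-level motor neurons and the upper thorax, shows how the choice of probe set matters. Its mean ratio was 1.05 and 1.02 in Notch1 null, 0.972 in Notch1 heterozygous, 0.900 and 0.998 in wild type, 0.957 and 1.13 in Dll3 heterozygous and 0.928 and 0.978 in Dll3 null. Its 3 probe sets gave log2 differences between Notch1 null and wild type of 0.38 ± 0.10, 0.27 ± 0.12 and -0.27 ± 0.20, of which the first alone passed the test over probe sets (limma, adjusted p = 0.0451). Their mean was 0.13 ± 0.11.

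The Notch1 heterozygous group has 1 array, whose spread is taken from the other groups in the fit. In it 0 of 31 Hox genes passed the test against wild type, where 2.25% of all genes did, and 7 had an unadjusted limma p under 0.05, where 18.7% did. Fitted robustly, limma called 10, and 29.4% of all genes. The array has the female pattern and both wild-type arrays the male one: with sex as a covariate 4 of the 12393 genes passed (0.0323%) in place of 279, and 13 and 22 genes did without wild-type replicate 1 or 2, with 0 Hox genes each time. Tested singly, 1 of 37 Hox probe sets passed, where 2.76% of all did. The array stood at the end of the range, above all others, in Hoxa3, Hoxb1, Hoxb3 and Hoxb4 (15.9% of all genes did) and below all others in Hoxa7, Hoxa11, Hoxc5, Hoxd1, Hoxd8 and Hoxd12 (12.1%). All 4 high genes are anterior, and 5 of the 6 low ones are not. With 1 array this pattern has no replicate.

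Hoxa3, which the thymus, parathyroid and neck need, stood at 1.30 in the Notch1 heterozygous array, 1.04 and 1.13 in Notch1 null, 0.977 and 0.844 in wild type, 0.940 and 1.12 in Dll3 heterozygous and 0.781 and 1.01 in Dll3 null. The log2 difference of the heterozygous array from wild type was 0.52 ± 0.18 (limma, adjusted p = 0.148). Its 2 probe sets stood apart there, at 1.61 and 1.05, and the former passed the test over probe sets (0.88 ± 0.19, adjusted p = 0.0477). Hoxb1, which gives the fourth rhombomere of the hindbrain its identity, stood at 1.36 in that array, 1.20 and 1.25 in Notch1 null, 1.12 and 1 in wild type, 0.860 and 0.676 in Dll3 heterozygous and 0.813 and 0.929 in Dll3 null. Its 5 arrays of the Notch1 and wild-type groups all lay above the 4 Dll3 arrays. The dap controls also lay higher in those 5 arrays, at 1 to 9.20 against 0.360 to 0.403 in the Dll3 arrays. Their part in the Hoxb1 difference was not tested.

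Low in the heterozygous array were Hoxc5, at 0.732 against 0.914 to 1.14 elsewhere (log2 difference from wild type -0.51 ± 0.12, limma adjusted p = 0.0647), and Hoxd12, a limb gene. Hoxd12 stood at 0.762 there, 0.983 and 0.918 in Notch1 null, 1.01 and 1.15 in wild type, 0.806 and 0.965 in Dll3 heterozygous and 0.940 and 0.771 in Dll3 null. Its replicates in both Dll3 groups differed by more than the Notch1 null and wild-type means did. Between Notch1 null and Notch1 heterozygous, Hoxd1 was the only member called, 1.95-fold higher in Notch1 null (log2 0.96 ± 0.15, limma adjusted p = 0.0162); 2.45% of all genes passed, and 6 Hox genes had an unadjusted p under 0.05, where 17.7% of all genes did. Of the Hox probe sets 2 of 37 passed, where 1.78% of all did. That call ended without Notch1 null replicate 1 (adjusted p = 0.0615) or 2 (0.0730), after quantile normalization (0.0561) and in a fit of both groups alone (0.109). Fitted robustly, limma called 11, and 28.3% of all genes.

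In the Dll3 embryos no Hox gene passed the test. Between Dll3 null and wild type 0 of 31 were called, where 1 gene of 12393 was (0.00807%), and 6 had an unadjusted limma p under 0.05, where 9.34% of all genes did. Dll3 heterozygous against wild type gave 0 of 31, against 0.113% of all genes, and 4 with an unadjusted p under 0.05, against 14.5%. Dll3 null against Dll3 heterozygous gave 0 of 31, against 0%, and 3 with an unadjusted p under 0.05, against 5.28%. Fitted robustly, limma called 4, 3 and 1 in these comparisons, and 7.67%, 17.2% and 1.35% of all genes. Against wild type 0 of 37 Hox probe sets passed in Dll3 null, where 0.0884% of all did, and 1 in Dll3 heterozygous, that of Hoxb5, where 0.486% did. The arrays of Dll3 null and wild type did not overlap in 16 of 31 Hox genes, against 39.6% of all genes, and the median log2 difference was -0.02, against 0.00 over all genes.

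The widest difference in Dll3 null was in Hoxb9, a thoracic gene that shapes the ribs. Its ratio was 1.92 and 1.07 in Dll3 null, 0.808 and 0.881 in Notch1 null, 1.16 in Notch1 heterozygous, 0.968 and 0.825 in wild type and 1.02 and 1 in Dll3 heterozygous. Dll3 null replicate 1 alone stood high, 1.80-fold above replicate 2, and the log2 difference from wild type was 0.68 ± 0.22 (limma, adjusted p = 0.361). Hoxa5 was at -0.28 ± 0.10 (adjusted p = 0.408), with Dll3 null below every other array, as it also was in Hoxb3, where the difference was -0.24 ± 0.10 (adjusted p = 0.496); 1.34% of all genes had both Dll3 null arrays below all others. Hoxb1 was at -0.28 ± 0.13 in Dll3 null (limma, adjusted p = 0.542) and at -0.47 ± 0.13 in Dll3 heterozygous (adjusted p = 0.144), without an order by dose of the allele.

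Hoxb7, a thoracic gene, was lowest in wild type, at 0.830 and 0.914, against 1.05 and 0.969 in Notch1 null, 0.973 in Notch1 heterozygous, 1.02 and 1.17 in Dll3 heterozygous and 1.08 and 1 in Dll3 null. The wild-type arrays lay below all others, as in 4.99% of all genes, and the log2 difference was 0.25 ± 0.11 in Dll3 null (limma, adjusted p = 0.503) and 0.33 ± 0.11 in Dll3 heterozygous (adjusted p = 0.200). Hoxc9, a thoracic motor neuron gene, stood at 1.14 and 1.08 in Dll3 null, 0.975 and 1.14 in Dll3 heterozygous, 0.853 and 1.07 in wild type, 0.920 in Notch1 heterozygous and 1 and 0.976 in Notch1 null, with a log2 difference between Dll3 null and wild type of 0.22 ± 0.13 (adjusted p = 0.650). Wild type lay above all others in Hoxb5, Hoxb6 and Hoxd12, where 7.10% of all genes did. Hoxb6 spans so narrow a range that its order carries little, and the Hoxd12 probe set is 1 of those with a median below 1.

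Set directly against each other, Notch1 null and Dll3 null embryos differed in 3 Hox genes, all higher in Notch1 null, where 7.79% of all genes differed and 2.92% were higher in Notch1 null. Hoxa5 was 1.89-fold higher (log2 0.92 ± 0.10, limma adjusted p = 0.00195), Hoxa9 1.41-fold (0.49 ± 0.10, adjusted p = 0.0193) and Hoxb1 1.41-fold (0.49 ± 0.13, adjusted p = 0.0483). The Hoxa5 call held in all 19 alternatives, the Hoxa9 call in 14 and the Hoxb1 call in 8. Without Notch1 null replicate 1, Notch1 null replicate 2 or Dll3 null replicate 1, the adjusted p was 0.0721, 0.122 and 0.118 for Hoxa9 and 0.129, 0.233 and 0.238 for Hoxb1; for Hoxb1 it was also 0.0674 without either wild-type array and 0.0751 without Dll3 null replicate 2. Hoxb9 at -0.76 ± 0.22 (adjusted p = 0.0649) and Hoxc8 at 0.67 ± 0.18 (adjusted p = 0.0570) did not pass. Fitted robustly, limma called 11, and 29.2% of all genes. The dap controls also differed between these groups, at 5.26 and 2.62 in Notch1 null and 0.360 and 0.377 in Dll3 null. Their part in the Hox differences was not tested.

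The Notch1 null arrays differed from each other most in posterior genes of clusters a and d. Hoxd11, which with Hoxa11 shapes the forearm and kidney, was 0.513 in replicate 1 and 1.18 in replicate 2, a 2.29-fold difference, against 0.978 in Notch1 heterozygous, 0.782 and 1.09 in wild type, 1.09 and 0.927 in Dll3 heterozygous and 1 and 1.12 in Dll3 null. Hoxd10, a lumbar gene chosen after its values were seen, was 0.766 and 1.58, a 2.07-fold difference, with the other 7 arrays between 0.830 and 1.13. Hoxa10, its paralogue, was 0.769 and 1.20, a 1.56-fold difference, against 0.891 in Notch1 heterozygous, 0.868 and 1 in wild type, 0.888 and 1.16 in Dll3 heterozygous and 1.04 and 1.15 in Dll3 null. Replicate 1 was the lowest of all 9 arrays in these 3 genes and replicate 2 the highest.

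The distances between the Notch1 null replicates in Hoxd11, Hoxd10 and Hoxa10 lay at the 99.9, 99.9 and 99.5 percentile of all genes. Of the 13 posterior genes 3 differed by over 0.5 on the log2 scale, where 1.54% of all genes did, and 0 of the 9 anterior and 0 of the 9 central genes. Hoxd9 differed by 1.32-fold, but Hoxa9, Hoxa11, Hoxd12, Hoxd13 and Hoxa13 differed less: Hoxa9 was 1.42 and 1.43, Hoxa11 0.988 and 0.982, Hoxd12 0.983 and 0.918, Hoxd13 0.961 and 1.06 and Hoxa13 0.919 and 0.858. The fold change of Hoxd11 against wild type, -0.25 ± 0.31 on the log2 scale, averages 1 low and 1 high array. Beside this, replicate 1 had the female and replicate 2 the male pattern. The mean log2 ratio of 9 tail bud and presomitic markers was 0.01 and 0.15, and that of 10 limb bud markers -0.06 in both. The part of these in the difference was not tested. In the other groups 0 posterior genes differed by over 0.5 in wild type and 1 in each Dll3 genotype. The median posterior distance, however, was 0.10 in Notch1 null, as over all genes, and larger in wild type (0.22), Dll3 heterozygous (0.19) and Dll3 null (0.14). Hoxd11 also differed between the wild-type arrays, by 1.40-fold, at the 98.3 percentile.

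**Figure D4:**
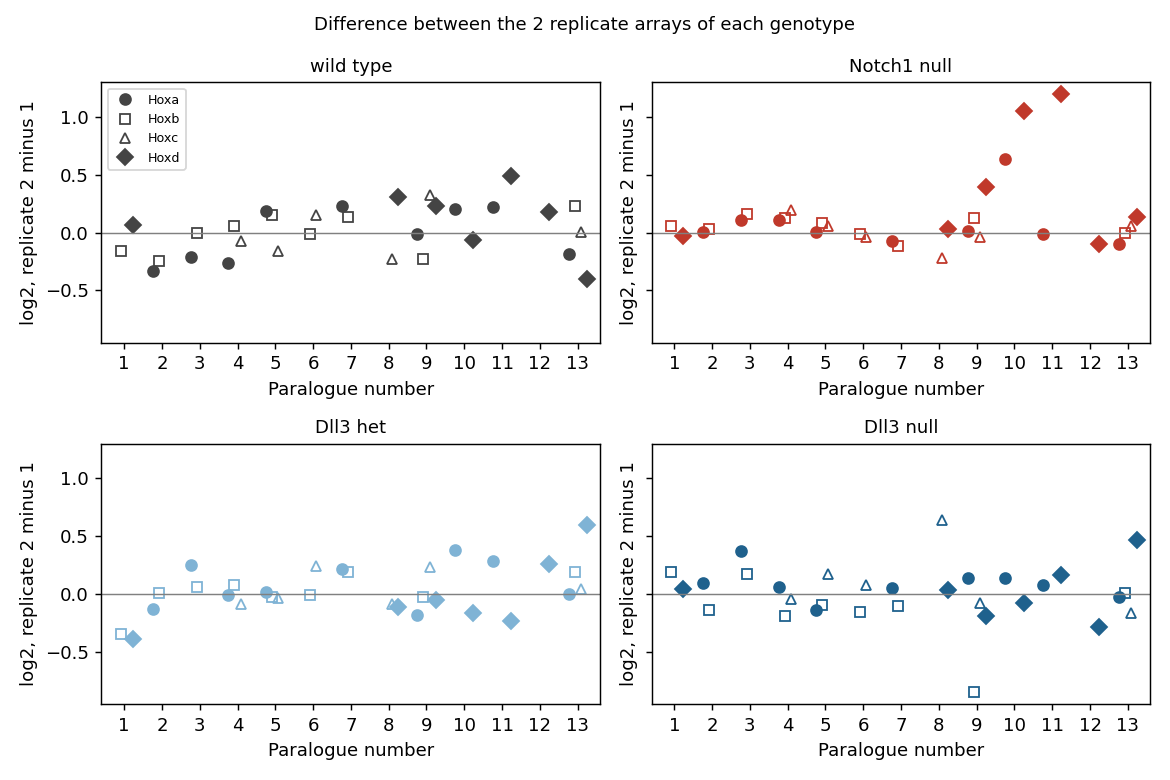
Log2 difference between replicate 2 and replicate 1 (vertical axis) of each Hox gene against its paralogue number (horizontal axis), with a panel for each of the 4 genotypes with 2 arrays and a symbol for each cluster. In Notch1 null Hoxd11, Hoxd10 and Hoxa10 stand 0.64 or more above 0, and in Dll3 null Hoxb9 and Hoxc8 lie apart in opposite directions.

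Genes that act with or on Hox genes were taken from lists. Of 8 measured genes of the TALE class, the Pbx, Meis and Pknox homeodomain cofactors that bind DNA with Hox proteins, 0 passed the limma test between Notch1 null and wild type, where Meis3 (-0.29 ± 0.10) and Pbx2 (-0.28 ± 0.12) had unadjusted p of 0.0128 and 0.0447. Of all genes 12.1% passed there. The median log2 difference of the TALE genes was -0.13, against -0.03 over all genes. Meis3, a cofactor of the hindbrain, was 0.787 and 0.851 in Notch1 null against 1.23 in Notch1 heterozygous and was lower than in that array (-0.59 ± 0.12, adjusted p = 0.0362), though not without either Notch1 null array (0.113 and 0.0920), either wild-type array (0.0650) or either Dll3 null array (0.0550). Of the ParaHox genes, relatives of the Hox genes, Gsx1, Gsx2 and Pdx1 were listed here, and the Cdx genes with the regulators below. None of Gsx1, Gsx2 and Pdx1 passed between Notch1 null and wild type, with Gsx1 at -0.18 ± 0.10 and Gsx2 at -0.05 ± 0.12.

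Among 16 measured inducers and regulators, 3 rose and 1 fell in Notch1 null against wild type. Over all genes 3.76% rose and 8.35% fell there, and 2.25% passed in Notch1 heterozygous against wild type. Aldh1a2, the enzyme that makes retinoic acid in the somites and flank, was 0.651 and 0.759 in Notch1 null, 1.50 in Notch1 heterozygous, 1.58 and 1.28 in wild type, 1.07 and 1 in Dll3 heterozygous and 0.962 and 0.873 in Dll3 null, 2.02-fold lower in Notch1 null than in wild type (log2 -1.01 ± 0.13, limma adjusted p = 0.00220). Cyp26a1, which degrades retinoic acid in the tail bud, was 1.25 and 1.29 in Notch1 null and 0.741 to 1 in the others, 1.48-fold higher than in wild type (0.56 ± 0.14, adjusted p = 0.0287). Nr6a1, a nuclear receptor of trunk development, was 1.64-fold higher (0.72 ± 0.13, adjusted p = 0.00787) and Kmt2a, the Trithorax methyltransferase that keeps Hox genes on, 1.34-fold higher (0.42 ± 0.10, adjusted p = 0.0214). The Aldh1a2 call held in all 18 alternatives. After quantile normalization the calls of Cyp26a1 and Kmt2a ended (limma adjusted p = 0.0652 and 0.0566). With the probe set of largest SD in place of the mean, that of Kmt2a ended too (log2 0.29, adjusted p = 0.251). The calls of the 3 genes that rose ended without single arrays: Cyp26a1 without either Notch1 null array (adjusted p = 0.1001 and 0.153) or wild-type replicate 1 (0.159), Nr6a1 without Notch1 null replicate 1 (0.0528) or wild-type replicate 2 (0.0664), and Kmt2a without Notch1 null replicate 2 (0.147) or either wild-type array (0.0575 and 0.133). Kmt2a and Nr6a1 also passed in the Notch1 heterozygous array, at 2.14-fold and 2.08-fold (adjusted p = 0.00789 and 0.0178), as did Gbx2, a hindbrain gene, at 1.75-fold (adjusted p = 0.0278). All 3 calls of that array ended with sex as a covariate (adjusted p = 0.0550, 0.0782 and 0.119), and those of Nr6a1 and Gbx2 also without either wild-type array (0.0631 and 0.0805 for Nr6a1, 0.0992 and 0.101 for Gbx2). In both Dll3 genotypes 0 of the 16 passed against wild type. Of all genes 0.00807% passed in Dll3 null and 0.113% in Dll3 heterozygous.

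Of 15 measured Polycomb genes, whose products silence Hox genes outside their domains, 2 rose and 2 fell in Notch1 null against wild type. Of all genes 3.76% rose and 8.35% fell. Jarid2, which recruits Polycomb complex 2, was 1.47 and 1.57 in Notch1 null and 0.803 to 1.09 in the other arrays, 1.56-fold higher than in wild type (log2 0.64 ± 0.11, limma adjusted p = 0.00718), and Ezh1, a methyltransferase of that complex, was 1.29-fold higher (0.36 ± 0.10, adjusted p = 0.0465). Ring1, of Polycomb complex 1, was 1.42-fold lower (-0.51 ± 0.11, adjusted p = 0.0193) and Cbx2, its reader of the histone mark, 1.34-fold lower (-0.43 ± 0.10, adjusted p = 0.0246). Each call ended without at least 1 array: Jarid2 without Notch1 null replicate 2 (0.0660) or wild-type replicate 2 (0.0602), Ring1 without Notch1 null replicate 1 (0.117) or either wild-type array (0.0676 and 0.117), and Cbx2 and Ezh1 without any 1 of the Notch1 null or wild-type arrays (0.0569 to 0.147 and 0.0729 to 0.254), Ezh1 also without any 1 Dll3 array (0.0596 to 0.0652). With sex as a covariate the calls of Kmt2a, Ring1, Cbx2 and Ezh1 ended too (0.0505, 0.0515, 0.0511 and 0.0603). Those of Ring1, Cbx2 and Ezh1 ended after quantile normalization (limma adjusted p = 0.0603, 0.0823 and 0.0718). With the probe set of largest SD in place of the mean, those of Cbx2 (log2 -0.36, adjusted p = 0.176) and Ezh1 (0.49, adjusted p = 0.0595) ended. None of the 15 passed in either Dll3 genotype against wild type, where 0.00807% (Dll3 null) and 0.113% (Dll3 heterozygous) of all genes did.

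Markers of somites and neural tube, tissues that carry Hox expression, also fell in part in Notch1 null against wild type. Of all genes 8.35% fell and 3.76% rose. Somite markers fell in 5 of 9 cases (Uncx, Pax1, Meox2, Pax3 and Tcf15), and their mean log2 ratio was -0.47 and -0.37 in Notch1 null, -0.09 in Notch1 heterozygous, 0.20 and 0.09 in wild type, -0.03 and -0.04 in Dll3 heterozygous and -0.21 and -0.16 in Dll3 null. Neural tube markers fell in 5 of 9 (Neurog2, Sox3, Olig2, Pax6 and Nkx6-1), with means of -0.33 and -0.45 in Notch1 null, 0.10 and 0.08 in wild type and -0.07 to 0.00 elsewhere. Of the forebrain and midbrain markers, tissue without Hox expression, 1 of 8 rose (Otx2) and 1 fell (Lhx2), and of the tail bud and presomitic markers 1 of 9 rose, Cyp26a1. None of 10 limb bud markers passed; 1 of 8 neural crest markers rose (Tfap2a) and 1 fell (Twist1), 1 of 8 gut and lateral plate markers rose (Sox17) and 1 fell (Barx1), 2 of 8 markers of endothelium and blood rose (Kdr and Tek), and 0 of 4 of intermediate mesoderm. The calls of Uncx, Pax1, Neurog2, Sox3, Sox17 and Barx1 held in all 18 alternatives, and those of Tcf15, Olig2, Twist1 and Kdr in 17. Those of Meox2, Pax3 and Tfap2a held in 16, of Cyp26a1 in 14, of Otx2 and Lhx2 in 13, of Pax6 and Tek in 12 and of Nkx6-1 in 10. Hoxa5 and Hoxa9 thus rose, and Hoxa2 and Hoxb5 fell, in arrays whose somite and neural tube markers were lower, and the part of these tissues in the Hox values was not tested.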

How the data were processed

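Whole 9.5 dpc mouse embryos of 5 genotype groups were measured on 9 arrays. The deposited values are linear ratios. The submitters' processing notes name RMA without a version; the division of each probe set by its own number is seen in the values and not given in the sources used here. Of 22690 probe sets 64 controls were set aside. Ratios were taken to log2 with no pseudocount, and probe sets with 1 symbol in the platform annotation were averaged by gene. Groups were compared in 7 comparisons with limma 3.58.1 in R 4.3.3 (lmFit and eBayes, 1 mean per genotype over all 9 arrays, 4 residual and 5.64 prior degrees of freedom), with Benjamini-Hochberg adjustment over 12393 genes and a threshold of 0.05; the procedure was tested on simulated data. Errors are limma's standard errors, and the number of arrays limits the precision. With ratios, no filter on level was possible, and leaving out probe sets whose median is below 1 was run in its place.

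Hox genes with values in every array are those called in any comparison by gene or probe set and, in each cluster, those with the highest and lowest change in each null genotype; from other lists, the called genes, up to 4 by lowest p, or otherwise the 2 of lowest p. The members and lists were chosen with earlier results of these data known. Replicate numbers do not pair arrays: the correlation of same-numbered arrays' deviations ran from -0.183 to 0.180 over the group pairs.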

Additional observations from a re-analysis of the deposited data

Results flagged for a closer look

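The changes against wild type in Notch1 null and Dll3 null differed in 3 Hox genes by limma's test of the difference. Wild type cancels in that difference, so this is the comparison of Notch1 null with Dll3 null given above and not a further test. The limits given there for the Hoxa9 and Hoxb1 calls hold here too. In Hoxa5 the log2 difference between the changes was 0.92, from 0.64 in Notch1 null and -0.28 in Dll3 null (adjusted p = 0.00195). In Hoxa9 it was 0.49, from 0.60 and 0.11 (adjusted p = 0.0193). In Hoxb1 it was 0.49, from 0.21 and -0.28 (adjusted p = 0.0483), and neither of its changes passed on its own.

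A probe set annotated to both Hoxb8 and Hoxb7, which the members leave out, had a signal apart from wild type. The wild-type arrays had ratios of 0.281 and 0.282, against 0.487 and 0.989 in Notch1 null, 2.06 in Notch1 heterozygous, 1.06 and 1.22 in Dll3 heterozygous and 1.16 and 1 in Dll3 null, so that the lowest mutant array was 1.73-fold the highest wild-type array. The log2 difference from wild type passed limma's test over all probe sets in every mutant genotype: 1.30 ± 0.26 in Notch1 null (adjusted p = 0.0170), 2.87 ± 0.32 in Notch1 heterozygous (adjusted p = 0.0110), 2.02 ± 0.26 in Dll3 heterozygous (adjusted p = 0.0283) and 1.93 ± 0.26 in Dll3 null (adjusted p = 0.0442). The Hoxb7 probe set of 1 symbol was also lowest in wild type, but its values ran only from 0.830 to 1.17. The dap controls were highest in the wild-type arrays, at 6.61 and 9.20, and those arrays had the male pattern. The part of these in the difference of the Hoxb8 and Hoxb7 probe set was not tested.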

How the results depend on the processing

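The robust limma fit moved the counts of called Hox genes most, to 10 from 4 in Notch1 null and 10 from 0 in Notch1 heterozygous against wild type, 11 from 1 between these, 4 and 3 from 0 in Dll3 null and Dll3 heterozygous against wild type, 1 from 0 between those, and 11 from 3 between the null genotypes. With 2 arrays or 1 per group, the robust fit may understate the spread. It raised the calls over all genes too, to 4210 from 1501 and 3646 from 279 in Notch1 null and Notch1 heterozygous against wild type. With sex as a covariate the Hox counts were 4, 0, 1, 0, 0, 0 and 2 while those of all genes fell, to 1193 and 4 in these. Quantile normalization gave 0 between Notch1 null and heterozygous and 1 between the null genotypes, as did fits of both groups alone (0 and 1). The probe set of largest SD, and probe sets tested singly, each gave 1 in Notch1 heterozygous (Hoxa3), 2 between Notch1 null and heterozygous (Hoxa9 and Hoxd1) and 1 in Dll3 heterozygous (Hoxb5). Without each array in turn the counts ran from 2 to 5 for Notch1 null against wild type, 0 to 1 against Notch1 heterozygous and 1 to 4 against Dll3 null; the lowest came without Notch1 null replicate 2, and the last also without Dll3 null replicate 1. The counts over all genes ran from 372 to 1501, 55 to 218 and 94 to 966. A replicate block gave 4, 0, 1, 0, 0, 0 and 2 calls; the call lost was Hoxb1 between the null genotypes (adjusted p = 0.0623). Over all genes quantile normalization called 55 and 448 in the comparisons named for it, in place of 304 and 966. The probe set of largest SD called 430, 315 and 95 in those named for it, in place of 279, 304 and 14. The replicate block called 859 of all genes between the null genotypes, in place of 966. The cause of these moves was not tested. Of 698 alternatives for single genes, 660 stayed on the same side of the threshold, 25 ended a call, 13 made one and 0 reversed a call. Among the 660, 18 were uncalled both ways and took another sign. Signal over background is not known from ratios.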

Other observations

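The 2 probe sets annotated to both Hoxd3 and Hoxd4, anterior genes of cluster d, lay outside the members. In Notch1 null they stood at 0.994 and 1.30, and at 0.859 and 1.26, with replicate 2 the highest array in each. Against wild type the log2 differences were 0.28 ± 0.14 (limma over all probe sets, adjusted p = 0.278) and 0.30 ± 0.27 (adjusted p = 0.561), and in Dll3 null 0.04 ± 0.14 (adjusted p = 0.949) and 0.14 ± 0.27 (adjusted p = 0.903).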
